A study of Mus musculus with 18 samples.

Results

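Amot, Amotl1, Amotl2, Ptpn14, Ajuba and Limd1, a set of 6 genes whose proteins tie Yap and Taz or their kinases to cell junctions and the actin cytoskeleton, were followed in O9-1 cells during osteoblast differentiation. The genes were taken by name, with earlier results of these data known, and all 6 were found among 55335 gene identifiers. O9-1 is a mouse neural crest (NC) cell line isolated from the head of early embryos, and every library came from this 1 line in osteoblast differentiation medium. Bulk RNA-seq of polyadenylated RNA covered 3 groups at day 2.5 (d2.5) and day 5 (d5), with 3 libraries in each of the 6 combinations. Ctrl+vehicle cells received scramble siRNA and no FGF2, Ctrl+FGF2 cells received scramble siRNA and FGF2, and Y/T dKD+FGF2 cells received siRNA SMART pools (mixtures of siRNAs) against Yap and Taz together with FGF2. Knockdown without FGF2 was not analysed here, so the knockdown was compared in the presence of FGF2. The labels give each day a batch of its own, and day and batch therefore cannot be told apart. They do not state whether replicates were separate cultures, so that p-values measure the spread between these libraries, which may be technical.

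Yap and Taz (gene Wwtr1) are co-activators that enter the nucleus and bind Tead transcription factors. The Lats kinases of the Hippo pathway hold them in the cytoplasm by phosphorylation. Angiomotins are scaffold proteins that bind Yap and Taz directly through their WW domains, and can keep them at junctions or on actin filaments. Ptpn14, a tyrosine phosphatase with a FERM domain, binds Yap in a similar way, whereas the LIM-domain proteins Ajuba and Limd1 bind Lats kinases at adherens junctions and limit their activity. Several genes of this circuit, Amotl2 among them, are known as transcriptional targets of Yap and Tead in other cells.

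The 18 libraries held 10377151 to 14698525 counts on genes (median 12330911), and the 6 genes had 387 to 9189 counts in each library, so that none was limited by low counts. Levels below are CPM (counts scaled to a common library total), set on 1 scale over the 18 libraries by TMM (trimmed mean of M values) normalisation, with the SD of 3 libraries. Changes are log2 fold changes with their standard error (SE) and a p-value from edgeR's quasi-likelihood test, adjusted over all genes tested by the Benjamini-Hochberg method. A gene was called when its adjusted p was under 0.05. Overlap of libraries between groups is described for the 6 genes only. The share of all genes without overlap is not given here, so a lack of overlap is no measure of rarity. The siRNA targets were lower in Y/T dKD+FGF2 than in Ctrl+FGF2 cells on both days, with log2 fold changes of -0.96 at d2.5 and -1.12 at d5 for Yap1 and of -0.72 and -0.80 for Wwtr1. Neural crest and mesenchyme markers were present (8 of 8 with a mean of at least 1 CPM in some group, summed level 1602 to 3097 CPM), as were 7 of 7 osteoblast markers. The neural crest and mesenchyme sum was made up mainly of Prrx1, and the osteoblast sum mainly of Col1a1 and Spp1. Of endothelial, epithelial, blood and neuronal markers, 1 of 6, 2 of 6, 1 of 6 and 2 of 6 reached 1 CPM. Their summed levels ran from 0.603 to 3.87 CPM for endothelial, 0.201 to 5.61 CPM for epithelial, 0.759 to 4.59 CPM for blood and 1.3 to 45.9 CPM for neuronal markers, the last made up mainly of Stmn2. The endothelial sum was made up mainly of Pecam1. Cdh5, Cldn5, Itgam, Rbfox3 and Neurod1 were at 0 in every library. In bulk RNA, fewer cells of a type and less RNA per cell cannot be told apart.

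All 6 genes were expressed in every group. Per kilobase of exon, which makes levels of different genes comparable, Ctrl+vehicle cells at d2.5 had a level of 21.3 ± 0.774 CPM per kb for Amot, 14.2 ± 0.372 for Amotl1, 13.6 ± 0.764 for Amotl2, 13 ± 0.485 for Ptpn14, 10.9 ± 0.156 for Limd1 and 10.5 ± 0.336 for Ajuba (SD, n = 3). In Y/T dKD+FGF2 cells at d5 the level of Amot was 91.7 ± 2.34 CPM per kb, and the other genes lay between 12.3 ± 0.517 for Ajuba and 20.7 ± 0.339 for Amotl1. The highest group mean was 8.17 times the lowest for Amot and 4.74 times for Amotl2. It was 2.03 times for Limd1, 1.52 for Amotl1, 1.36 for Ajuba and 1.35 for Ptpn14. The set thus held a pair of genes with wide swings, Amot and Amotl2, and 4 with narrower ones.

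**Figure D1:**
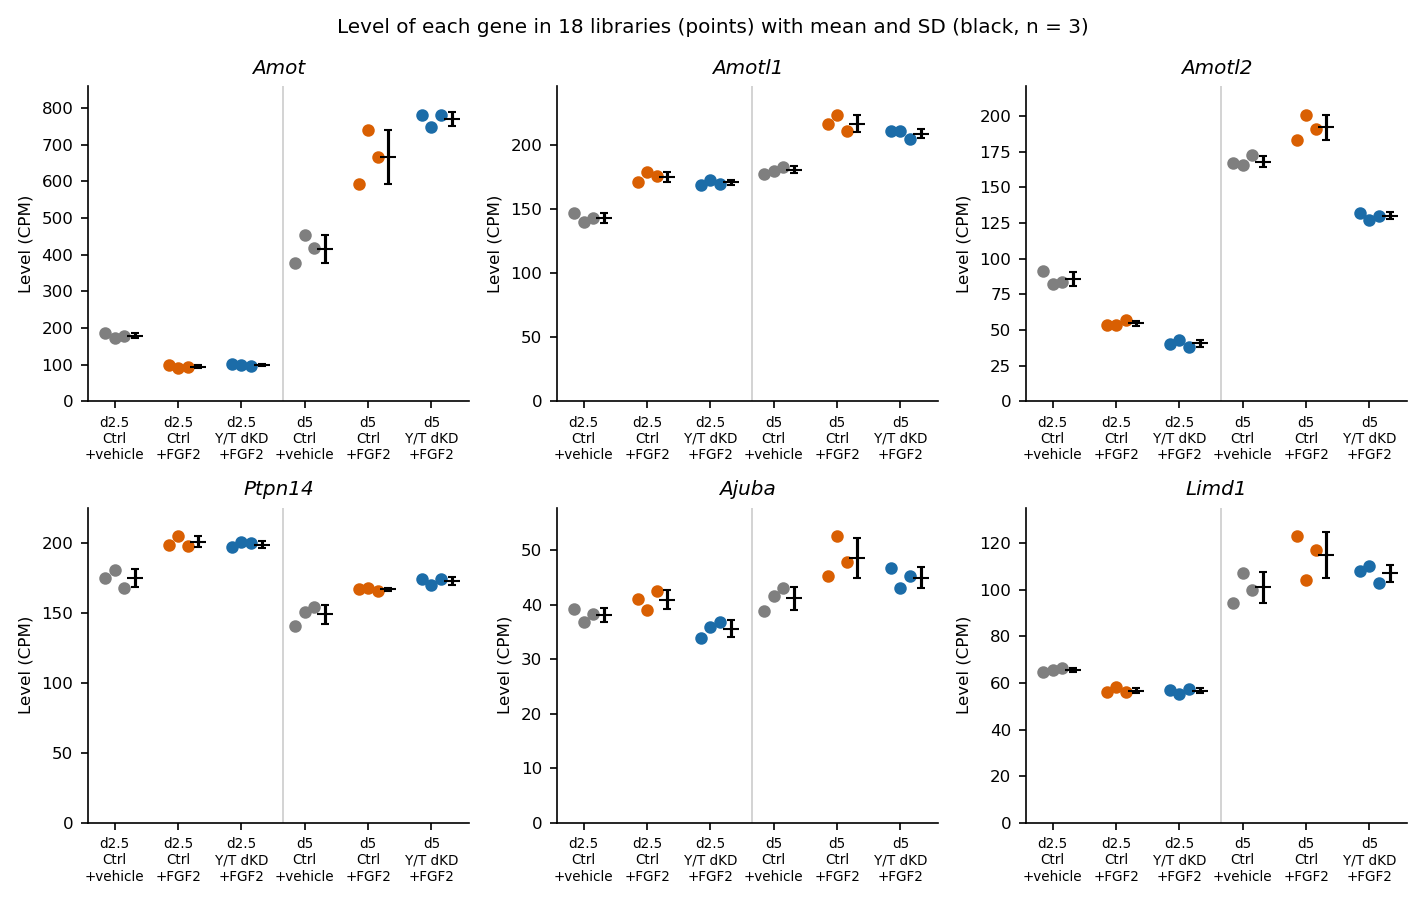
Level of the 6 genes in CPM (y axis, from 0) in each of 18 libraries by group (x axis); coloured points are libraries and black bars are the mean and SD of 3. Amot and Amotl2 fell with FGF2 at d2.5 and rose at d5, and Amotl2 was lowest within each day in Y/T dKD+FGF2 cells.

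In the GENCODE M21 annotation of GRCm38 (mm10), Amot (ENSMUSG00000041688.16) was on the minus strand at chrX:145446425-145505181. The genes on chromosome 9 were Amotl1 (ENSMUSG00000013076.17) on the minus strand at chr9:14541966-14645056, Amotl2 (ENSMUSG00000032531.15) on the plus strand at chr9:102716672-102733418 and Limd1 (ENSMUSG00000025239.3) on the plus strand at chr9:123478706-123521552. Ptpn14 (ENSMUSG00000026604.17) was on the plus strand at chr1:189728268-189876695 and Ajuba (ENSMUSG00000022178.11) on the minus strand at chr14:54567472-54577558. None shared exon bases with another gene on its own strand. Ptpn14 shared 177 exon bases with Gm26574 on the opposite strand, and 99.7% to 99.9% of the strand-assigned counts of the 6 genes fell on their own strand. Counts were per gene, so that isoforms, such as the long and short forms of Amot, were not separated.

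The knockdown lowers co-activators that act through Tead factors, and the promoters of the genes were therefore searched for the core Tead letters GGAATG on either strand. RefSeq promoter windows of 300 bases, 250 before the start and 50 after it, were matched for 5 of the 6 genes, all but Limd1. The letters occurred in 4817 of 32851 promoters of this kind (14.7%) and in those of Amotl2, Ptpn14 and Ajuba, 3 of 5. Related genes, listed further below, held them in 5 of 6 Yap/Taz and Tead factors and 4 of 5 Zyxin and Ajuba family LIM proteins. The counts were 4 of 13 for Yap/Taz target genes, 3 of 10 for the Hippo kinase core and 3 of 14 for junction and polarity genes. They were 1 of 8 for angiomotin partners and 1 of 4 for the phosphatases. Ajuba had 2 copies, and 1.36% of all promoters had at least 2. The stretches that hold these letters are printed 5′ to 3′ on the strand of the gene (build GRCm38.p6), with the match in capitals. In each, the capitals read CATTCC, the reverse complement of GGAATG. For Amotl2 the stretch is 30 bases on the plus strand at chr9:102717727-102717756, and its match, 65 bases before the RefSeq start, lies inside an Amotl2 exon that GENCODE annotates as UTR. For Ptpn14 it is the 250 bases before the start on the plus strand at chr1:189728018-189728267, with the match 146 bases before the start. For Ajuba it is the 250 bases before the start on the minus strand at chr14:54577662-54577911, with matches 186 and 164 bases before the start. The stretches of Ptpn14 and Ajuba touched no annotated exon.
Amotl2: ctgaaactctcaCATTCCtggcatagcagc
Ptpn14: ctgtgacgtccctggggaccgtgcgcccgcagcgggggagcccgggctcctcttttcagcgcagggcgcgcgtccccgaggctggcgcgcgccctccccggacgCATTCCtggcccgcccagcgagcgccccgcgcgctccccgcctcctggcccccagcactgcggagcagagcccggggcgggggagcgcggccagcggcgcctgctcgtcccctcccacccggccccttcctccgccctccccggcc
Ajuba: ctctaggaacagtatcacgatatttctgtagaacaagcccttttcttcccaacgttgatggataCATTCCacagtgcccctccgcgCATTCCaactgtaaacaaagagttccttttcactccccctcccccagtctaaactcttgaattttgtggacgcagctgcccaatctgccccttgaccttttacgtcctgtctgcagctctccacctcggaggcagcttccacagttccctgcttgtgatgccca
Neither the AP-1 letters TGANTCA (7.81% of all promoters) nor the Ets letters CCGGAAG (8.86%), both searched on each strand, were found in the 5 windows, and the windows of Amot and Amotl1 held none of the 3 motifs. The RefSeq starts of Amot, Amotl1 and Amotl2 lie inside the gene spans given above, and other starts of these genes were not searched. The motifs did not overlap in the windows printed. A match is a description of letters, and binding was not analysed here.

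FGF2 at d2.5 lowered Amot and Amotl2, and to a lesser degree Limd1, while Amotl1 and Ptpn14 were higher. The comparison of Ctrl+FGF2 with Ctrl+vehicle asks what FGF signaling changed in cells with Yap and Taz. Of the 6 genes, 2 were called higher and 3 lower, where 33.5% of all 13677 genes tested were called higher and 34.1% lower. Their median log2 fold change was -0.06, beside 0.00 over all genes tested, so that the set did not move as 1 group. Amot, the founding angiomotin, stood at 186, 173 and 177 CPM in the Ctrl+vehicle libraries and at 98.1, 90.6 and 94.1 CPM in the Ctrl+FGF2 libraries. The groups did not overlap, and the FGF2 mean was 52.7% of the vehicle mean, with a log2 fold change of -0.93 (SE 0.04, adjusted p = 2.1e-19). Amotl2, the angiomotin known as a Yap target, went from 91.3, 82.4 and 83.7 CPM to 53.6, 53.6 and 56.9 CPM. Every FGF2 library was below every vehicle library, with a log2 fold change of -0.66 (SE 0.05, adjusted p = 5.6e-13). Amotl1, the third angiomotin, moved the other way, from 147, 140 and 143 CPM to 171, 179 and 176 CPM, again without overlap. Its log2 fold change was 0.28 (SE 0.04, adjusted p = 3.8e-08), so that the 3 angiomotins did not change together.

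The junctional regulators changed less at d2.5. Ptpn14 had 175, 181 and 168 CPM with vehicle and 199, 205 and 198 CPM with FGF2, a log2 fold change of 0.19 (SE 0.04, adjusted p = 3.1e-05). Limd1 fell from 64.8, 65.5 and 66.6 CPM to 56.2, 58.1 and 56 CPM, with a log2 fold change of -0.22 (SE 0.05, adjusted p = 7.6e-05). Neither gene had overlapping groups. Ajuba, the close relative of Limd1, had 39.2, 36.8 and 38.3 CPM with vehicle and 41.1, 39 and 42.5 CPM with FGF2, and the groups overlapped. The change of 0.09 (adjusted p = 0.15) did not pass the test, and 1.96 SE on either side of it spanned -0.02 to 0.20. The summed neural crest and mesenchyme markers were lower with FGF2 at d2.5 as well, at 2013 to 2027 CPM in Ctrl+vehicle and 1602 to 1639 CPM in Ctrl+FGF2 libraries. The summed osteoblast markers were 17153 to 17495 CPM in Ctrl+vehicle and 9155 to 9380 CPM in Ctrl+FGF2 libraries of d2.5. Over the same libraries the summed neuronal markers went from 43.2 to 45.9 CPM down to 9.09 to 10.9 CPM, with Rbfox3 and Neurod1 at 0, the epithelial ones from 4.41 to 5.61 CPM down to 1.2 to 2.18 CPM and the endothelial ones from 2.78 to 3.87 CPM down to 0.735 to 1.55 CPM. The part of these marker genes in the changes was not tested.

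At d5, all 6 genes were called higher with FGF2 and none lower, where 23.5% of the 13304 genes tested were called higher and 23.7% lower. The median log2 fold change of the 6 genes was 0.23, beside 0.02 over all genes tested. Amot had the widest change of the 6, from 376, 454 and 417 CPM in Ctrl+vehicle to 592, 739 and 666 CPM in Ctrl+FGF2 libraries. The lowest FGF2 library lay well above the highest vehicle library, and the log2 fold change was 0.69 (SE 0.07, adjusted p = 1.9e-07). Amotl2 rose from 167, 166 and 173 CPM to 183, 201 and 191 CPM without overlap, a log2 fold change of 0.20 (SE 0.04, adjusted p = 0.0006). Amotl1 rose from 178, 180 and 183 CPM to 217, 224 and 211 CPM, with a log2 fold change of 0.28 (SE 0.04, adjusted p = 7.6e-06), the same value as at d2.5. FGF2 thus moved the 3 angiomotins in 1 direction at d5 and in opposite directions at d2.5.

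Among the junctional regulators at d5, Ptpn14 had 141, 151 and 154 CPM with vehicle and 167, 168 and 166 CPM with FGF2, a log2 fold change of 0.18 (SE 0.04, adjusted p = 0.0011). Ajuba had 38.9, 41.7 and 43 CPM with vehicle and 45.2, 52.6 and 47.9 CPM with FGF2, a log2 fold change of 0.25 (SE 0.06, adjusted p = 0.004). In neither gene did the groups overlap. Limd1 had 94.2, 107 and 100 CPM with vehicle and 123, 104 and 117 CPM with FGF2, and here the groups overlapped. Its log2 fold change was 0.20 (SE 0.06, adjusted p = 0.011), but the call was lost without Ctrl+FGF2 replicate 1 (0.144, adjusted p = 0.058) or replicate 3 (0.175, adjusted p = 0.052). With 1 library left out at a time the value stayed above 0, from 0.14 to 0.26, so that the libraries decide the call and not the direction. The summed osteoblast markers were 32311 to 34530 CPM in Ctrl+vehicle and 17824 to 19211 CPM in Ctrl+FGF2 libraries of d5. The summed neural crest and mesenchyme markers were 2621 to 2720 CPM with vehicle and 3033 to 3097 CPM with FGF2 at d5. With FGF2 the summed osteoblast markers, mainly Col1a1 and Spp1, were lower on both days. The summed neural crest and mesenchyme markers, mainly Prrx1, were lower at d2.5 and higher at d5, as were Amot, Amotl2 and Limd1. The endothelial sum, mainly Pecam1, went from 0.603 to 0.75 CPM up to 1.26 to 1.93 CPM at d5, with Cdh5 and Cldn5 at 0. The part of these marker genes in the d5 changes was not tested.

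The difference between the days was tested directly, as the FGF2 change at d5 minus that at d2.5 in a fit of all 18 libraries. Amot, Amotl2 and Limd1 were called, 3 of 6 genes, where 60.9% of 14198 genes were called in either direction. For Amot the change was 1.60 higher on the log2 scale at d5 (SE 0.09, adjusted p = 6.2e-16), for Amotl2 0.84 (SE 0.07, adjusted p = 4.8e-12) and for Limd1 0.39 (SE 0.08, adjusted p = 5.1e-05). In these 3 genes the FGF2 change had opposite signs on the days. Amotl1 and Ptpn14 had differences of -0.02 (-0.12 to 0.08) and -0.03 (-0.14 to 0.07), in which the range is 1.96 SE on either side, and Ajuba had 0.14 (-0.03 to 0.30). None of these was called. As each day was its own batch, the difference between days and that between batches cannot be told apart.

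**Figure D2:**
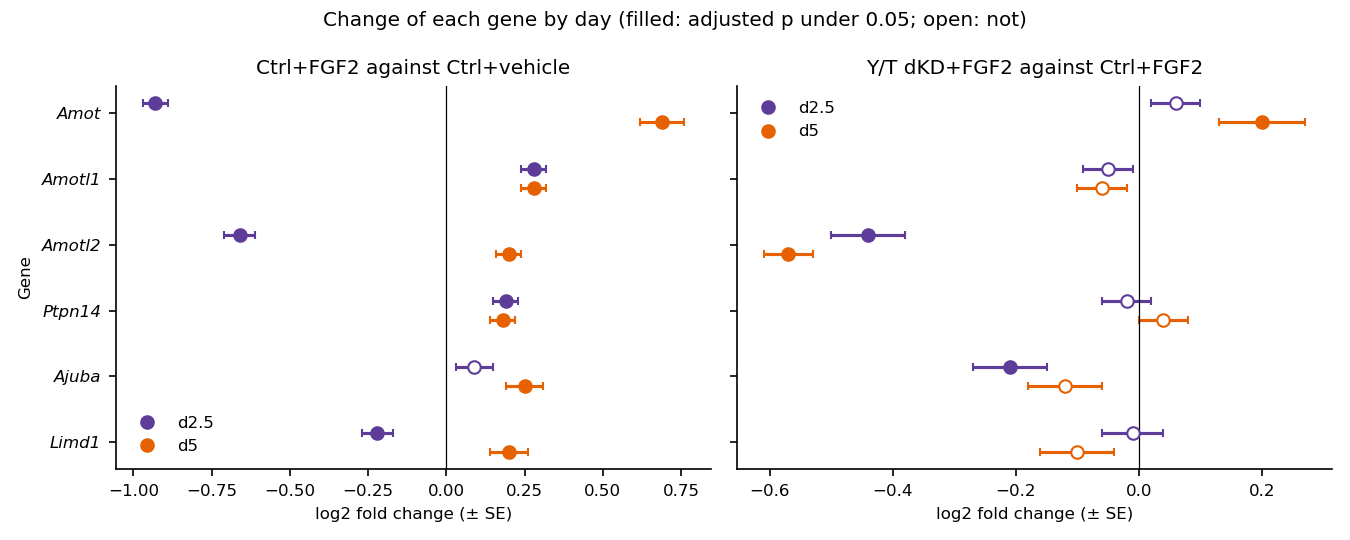
Log2 fold change (x axis) with its SE for the 6 genes (y axis) at d2.5 (purple) and d5 (orange), for FGF2 against vehicle (left) and for Yap/Taz knockdown in the presence of FGF2 (right); filled points had an adjusted p under 0.05. Amot and Amotl2 lie on opposite sides of 0 by day on the left, and on the right Amotl2 lies below 0 on both days, at -0.44 and -0.57.

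Knockdown of Yap and Taz in FGF2-treated cells lowered Amotl2 on both days, the only gene of the 6 that was called in the same direction on both days. At d2.5, Amotl2 and Ajuba were called lower and no gene higher, 2 of 6, where 10.8% of all genes tested were called higher and 13.6% lower. The promoter windows of both held the Tead letters shown above, as did that of Ptpn14, which was not called. The median change of the 6 genes was -0.03, beside 0.00 over all genes. Amotl2 had 53.6, 53.6 and 56.9 CPM in Ctrl+FGF2 and 40.2, 43.2 and 37.9 CPM in Y/T dKD+FGF2 libraries, without overlap. The mean after knockdown was 74% of that of Ctrl+FGF2, with a log2 fold change of -0.44 (SE 0.06, adjusted p = 1e-06). Ajuba had 41.1, 39 and 42.5 CPM in Ctrl+FGF2 and 33.9, 36 and 36.9 CPM in Y/T dKD+FGF2 libraries, which did not overlap either. Its log2 fold change was -0.21 (SE 0.06, adjusted p = 0.0086), and the call was lost without Ctrl+FGF2 replicate 3 (-0.181, adjusted p = 0.058) or Y/T dKD+FGF2 replicate 1 (-0.173, adjusted p = 0.06). The other 4 genes had overlapping groups and were not called. Their log2 fold changes, with 1.96 SE on either side, were 0.06 (-0.03 to 0.14) for Amot, -0.05 (-0.12 to 0.02) for Amotl1, -0.02 (-0.09 to 0.05) for Ptpn14 and -0.01 (-0.11 to 0.08) for Limd1. Amot stood at 101, 98.2 and 96.7 CPM in the knockdown libraries, all below the vehicle libraries of that day. The summed osteoblast markers were 10760 to 11177 CPM in Y/T dKD+FGF2 libraries of d2.5 and 24456 to 26114 CPM in those of d5, above Ctrl+FGF2 on both days. Those of neural crest and mesenchyme were 1688 to 1784 CPM at d2.5, above Ctrl+FGF2, and 2614 to 2674 CPM at d5, below it. The part of these markers in the knockdown changes was not tested.

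At d5, 1 gene was called lower after knockdown, Amotl2, and 1 higher, Amot, where 16.1% of all genes tested were called lower and 15.6% higher, and the median change of the 6 was -0.08, beside 0.00 over all genes. Amotl2 had 183, 201 and 191 CPM in Ctrl+FGF2 and 132, 127 and 130 CPM in Y/T dKD+FGF2 libraries. The knockdown libraries were below every other library of that day, and the log2 fold change was -0.57 (SE 0.04, adjusted p = 1.3e-08). Amot had 592, 739 and 666 CPM in Ctrl+FGF2 and 782, 748 and 782 CPM in Y/T dKD+FGF2 libraries, which did not overlap. Its log2 fold change was 0.20 (SE 0.07, adjusted p = 0.023), but the call was lost with DESeq2 at nearly the same size (0.207, adjusted p = 0.11). It was also lost without Ctrl+FGF2 replicate 1 (0.126, adjusted p = 0.1), Ctrl+FGF2 replicate 3 (0.207, adjusted p = 0.067), Y/T dKD+FGF2 replicate 1 (0.19, adjusted p = 0.087) or Y/T dKD+FGF2 replicate 3 (0.197, adjusted p = 0.077), and without Ctrl+FGF2 replicate 2 it was larger (0.29, adjusted p = 0.00098). Ctrl+FGF2 libraries of d5 were spread more widely for Amot, with an SD of 73.6 CPM, than those of the knockdown, with 19.7 CPM.

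The remaining genes did not pass the test after knockdown at d5. Amotl1 had 217 ± 6.94 CPM in Ctrl+FGF2 and 209 ± 3.41 CPM in Y/T dKD+FGF2 cells, a log2 fold change of -0.06 (-0.14 to 0.01). Ptpn14 had 167 ± 0.95 and 173 ± 2.59 CPM, without overlap, and a log2 fold change of 0.04 (-0.03 to 0.12). Ajuba had 48.6 ± 3.74 and 45 ± 1.89 CPM, with -0.12 (-0.25 to 0.01). Limd1 had 115 ± 9.81 and 107 ± 3.53 CPM, with -0.10 (-0.21 to 0.02), and it was called without Ctrl+FGF2 replicate 2 (-0.165, adjusted p = 0.025) and was nearer 0 without Ctrl+FGF2 replicate 1 (-0.05, adjusted p = 0.62). Between the days, the difference of the knockdown changes was called in none of the 6 genes by edgeR, where 20.9% of all genes were called. No gene of the set had an unadjusted p under 0.05 either, a count of 0, and DESeq2 called 0. Amot was called without Ctrl+FGF2 replicate 2 of d5 (0.226, adjusted p = 0.04). The difference for Amotl2 was -0.13 (-0.27 to 0.01).

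Set against Ctrl+vehicle, Y/T dKD+FGF2 cells combine the FGF2 and siRNA treatments. In this comparison Yap1 was called lower on both days, with log2 fold changes of -1.18 at d2.5 and -1.05 at d5. Wwtr1 was not called at d2.5 (-0.06, adjusted p = 0.12) and was called lower at d5 (-0.89). All 3 comparisons of a day share libraries, the FGF2 and knockdown comparisons those of Ctrl+FGF2, and these values stand beside the others and not as further support. At d2.5, Amot (log2 fold change -0.88), Amotl2 (-1.10) and Limd1 (-0.23) were called lower and Amotl1 (0.23) and Ptpn14 (0.17) higher, with 34.1% of all genes called higher and 35.7% lower. Ajuba had -0.12 (adjusted p = 0.078) and was not called, although upper-quartile scaling gave -0.145 (adjusted p = 0.031). At d5, Amot (0.90), Amotl1 (0.22) and Ptpn14 (0.22) were called higher and Amotl2 (-0.37) lower, with 20.7% of all genes called higher and 21.1% lower. Ajuba (0.13, adjusted p = 0.12) and Limd1 (0.10, adjusted p = 0.2) were not called. Amotl2 at d5 was thus above vehicle in Ctrl+FGF2 cells and below vehicle in Y/T dKD+FGF2 cells, the only gene of the 6 with opposite called signs there.

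From d2.5 to d5, Amot rose in every group. Its log2 fold change was 1.22 (SE 0.06) with vehicle, 2.82 (SE 0.06) with FGF2 and 2.96 (SE 0.06) after knockdown with FGF2. Amotl2 rose by 0.97, 1.81 and 1.68 in the same order, and Limd1 by 0.62, 1.01 and 0.93. Amotl1 rose by a similar amount in each group, 0.33, 0.31 and 0.29. Ptpn14 was the only gene that fell with time in all 3 groups, with log2 fold changes of -0.23, -0.26 and -0.21. Ajuba rose by 0.25 with FGF2 and 0.34 after knockdown, whereas its value of 0.12 with vehicle (adjusted p = 0.1) was not called, except without Ctrl+vehicle replicate 1 of d5 (0.152, adjusted p = 0.049). In all, 5, 6 and 6 of the 6 genes were called with vehicle, with FGF2 and with the knockdown, where 66.4%, 80.0% and 78.4% of all genes were called. A share this high in all genes gives the counts of the set little weight, and day and batch cannot be told apart.

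Ordered by level, the Amot groups were the FGF2 and knockdown groups of d2.5, whose libraries overlapped, then Ctrl+vehicle at d2.5, and then the vehicle, FGF2 and knockdown groups of d5, each apart from its neighbour. The order of Amotl2 was Y/T dKD+FGF2, Ctrl+FGF2 and Ctrl+vehicle at d2.5, followed by Y/T dKD+FGF2, Ctrl+vehicle and Ctrl+FGF2 at d5, with no overlap between neighbours. Limd1 had 56.6 ± 1.03 and 56.7 ± 1.16 CPM in the knockdown and FGF2 groups of d2.5, which overlapped, and its 3 groups of d5, from 101 ± 6.61 to 115 ± 9.81 CPM, overlapped as well. Ajuba was lowest in Y/T dKD+FGF2 cells at d2.5 and highest in Ctrl+FGF2 cells at d5, at 35.6 ± 1.55 and 48.6 ± 3.74 CPM.

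The mix of angiomotin transcripts changed with these shifts. Summed per kilobase of exon, the 3 angiomotins had 49.2 ± 1.9 CPM per kb with vehicle, 37.3 ± 0.378 with FGF2 and 35.2 ± 0.661 after knockdown at d2.5. At d5 the sums were 94.2 ± 4.7, 131 ± 10.6 and 133 ± 2.54. The summed level thus was lower with FGF2 at d2.5 and higher with it at d5, and in neither case did the libraries of Ctrl+vehicle and Ctrl+FGF2 overlap. Amotl1 was the leading angiomotin in FGF2-treated cells at d2.5, with 46.7% ± 1.12 of the sum without the knockdown and 48.3% ± 0.748 with it. Amot led in the other 4 groups, and its share ran from 43.3% ± 0.126 in Ctrl+vehicle at d2.5 to 68.9% ± 0.542 in Y/T dKD+FGF2 cells at d5. The share of Amotl2 in FGF2-treated cells was 23.3% ± 0.58 without and 18.3% ± 0.874 with the knockdown at d2.5, and 23.3% ± 0.795 and 15.5% ± 0.112 at d5. Shares depend on exon lengths, which count all annotated exons of a gene, and with 3 libraries in each group they are given without a test.

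**Figure D3:**
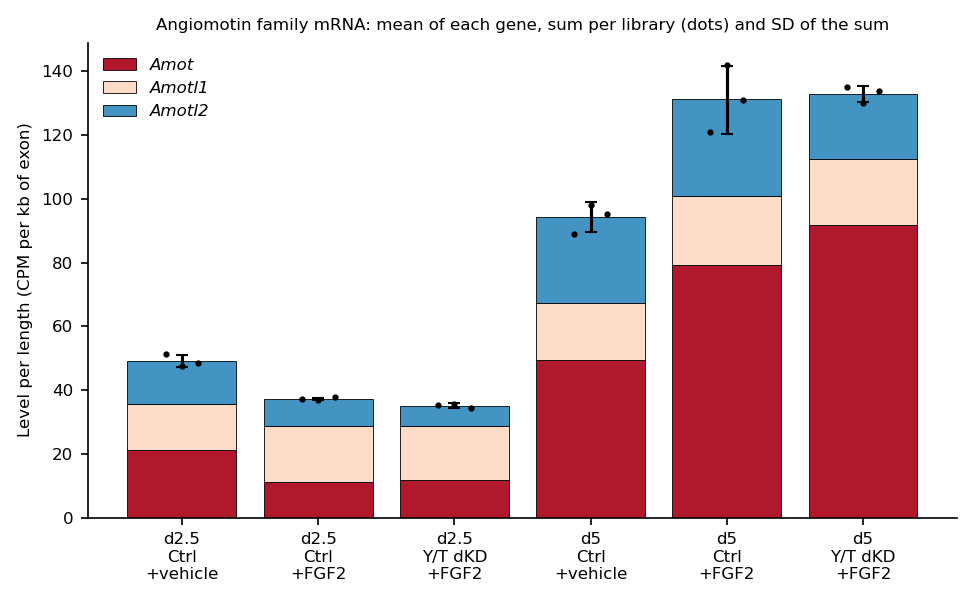
Angiomotin transcripts per length (y axis, CPM per kilobase of exon, from 0) by group (x axis); stacked bars are the mean levels of Amot, Amotl1 and Amotl2, black dots the sum in each library and error bars the SD of that sum (n = 3). The sum was 37.3 in Ctrl+FGF2 cells at d2.5 and 131 at d5, most of it Amot at d5.

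Genes with the nearest pattern were sought over the 6 group means, each gene centred on its own mean log2 CPM, among 12096 genes. The measure was the root mean square difference, for which a lower value means a closer pattern, and it is a description over 6 groups that share their libraries. The pattern of Amot itself had a root mean square size of 1.230, and the nearest genes were Pitpnc1 (0.104), a phosphatidylinositol transfer protein, Klhl38 (0.161) and Ankrd44 (0.178). The pattern of Amotl2 had a size of 0.820, and its nearest genes were Rhob (0.069), a small GTPase that acts on actin and endosomes, Scnn1a (0.099), a sodium channel subunit, and Grk5 (0.114), a receptor kinase. Rhob had group means of 73.1, 44.2 and 33.4 CPM with vehicle, FGF2 and the knockdown at d2.5 and of 131, 143 and 110 CPM at d5. Scnn1a had at most 3.67 CPM in any group, so that its pattern rests on few counts. Klhl38 was low as well, at 0.839 and 0.884 CPM with FGF2 and the knockdown at d2.5 and at most 9.35 CPM at d5. No gene lay within 0.1 of Amot and 2 lay within 0.1 of Amotl2.

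Limd1, with a pattern of size 0.431, was nearest to the transcription factor Klf3 (0.024), Dnajc16 (0.040) and Suco (0.043), and 81 genes lay within 0.1 of it. The other members had flat patterns, with sizes of 0.145 to 0.197, and 72 to 380 genes within 0.1, so that their nearest genes are 1 choice among many. These were Irf2bp2, Anapc11 and Hagh for Amotl1, Gm4349, Wasf2 and Lrrc47 for Ptpn14, and Pik3r2, Adprm and Edf1 for Ajuba. Gm4349 had at most 2.09 CPM in any group and ranked only 4796 for Ptpn14 over the 18 single libraries. Measured over the 18 single libraries, Pitpnc1, Rhob and Klf3 were again the nearest genes of Amot, Amotl2 and Limd1.

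**Figure D4:**
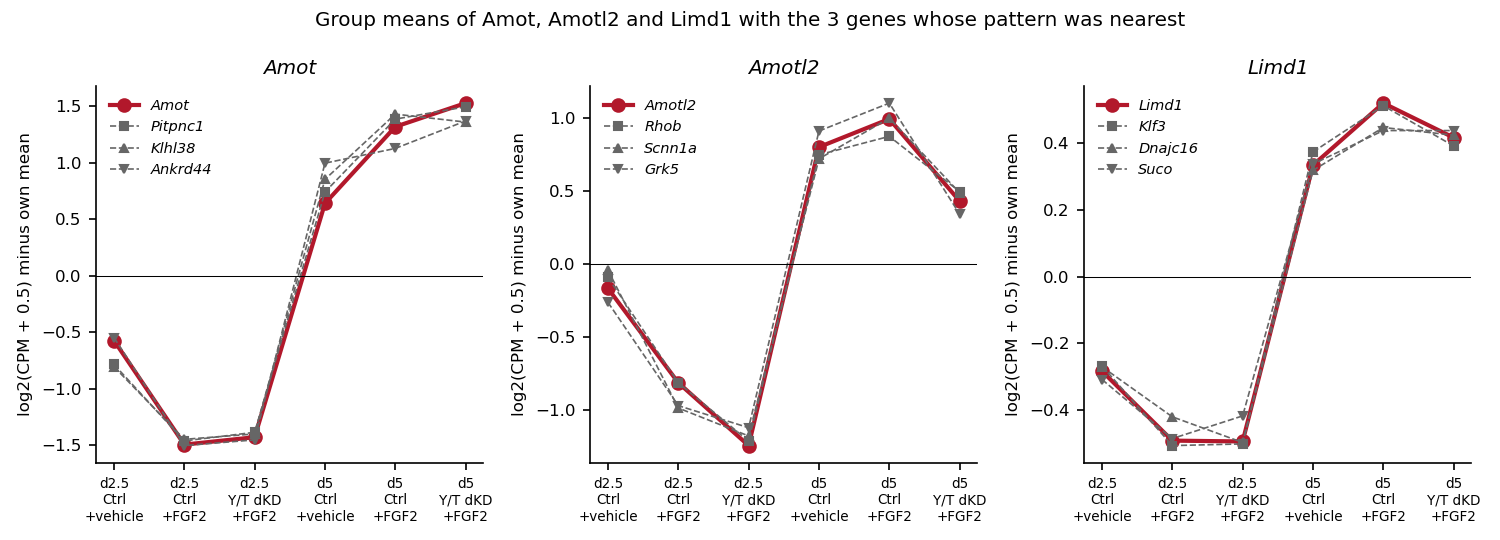
Log2 of the group mean CPM plus 0.5, centred on each gene's own mean (y axis), in the 6 groups (x axis). Amot, Amotl2 and Limd1 are red and the 3 genes nearest to each grey, and lines only join the groups of a gene. Rhob followed Amotl2 with a root mean square difference of 0.069, and Klf3 followed Limd1 with 0.024, both taken on means of log2(CPM + 0.5).

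The relatives of Ajuba and Limd1 outside the set, 5 LIM proteins of the Zyxin and Ajuba families, were all called at d2.5 with FGF2, 2 higher and 3 lower. Over all genes tested, 67.6% were called in either direction with FGF2 at d2.5 and 47.2% at d5. After knockdown, 24.5% were called at d2.5 and 31.7% at d5. These shares stand beside the counts of every list from here on. Zyx, an actin stress fibre and focal adhesion protein, went from 177 ± 8.11 to 320 ± 4.66 CPM with FGF2 (log2 fold change 0.84) and was at 198 ± 8.88 CPM after knockdown (-0.70). Trip6 (-0.37) and Fblim1 (-0.48) were also lower after knockdown at d2.5, so that 3 of 5 were called lower and none higher. At d5 the knockdown gave 1 call, Zyx, with a change of 0.23. With FGF2 at d5, 4 of 5 were higher, and Fblim1, a filamin-binding adhesion protein, went from 42.1 ± 2.56 to 82.9 ± 0.611 CPM (0.99).

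Of 4 phosphatases related to Ptpn14, FGF2 raised Ptpn21 (0.51) and Ptpn3 (1.40) at d2.5 and none passed the test at d5. After knockdown, Ptpn3 (0.44) and Ptpn13 (0.43) rose at d2.5 and Ptpn3 (0.54), Ptpn4 (0.50) and Ptpn13 (0.28) rose at d5, and none fell. Ptpn3 was a low gene, at 3.67 ± 0.659 CPM in Ctrl+FGF2 and 5.03 ± 0.0497 CPM in Y/T dKD+FGF2 cells at d2.5. The median change after knockdown was 0.29 at d2.5 and 0.39 at d5, beside 0.00 over all genes on both days. Ptpn14 itself had -0.02 and 0.04.

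Among 14 genes for partners of angiomotins and enzymes that act on their turnover, FGF2 at d2.5 gave 3 higher and 6 lower, and at d5 5 higher and 3 lower. Pals1, a polarity scaffold, had the largest called fall at d2.5, from 39.2 ± 1.9 to 25.8 ± 1.63 CPM (-0.61). Patj, the polarity protein that binds both Amot and Pals1, had a change of -0.57 at d2.5 and 0.86 at d5, opposite signs on the 2 days as for Amot and Amotl2. After knockdown at d5, Patj went from 32.6 ± 1.59 to 22.3 ± 0.598 CPM (-0.56), and 6 of 14 were lower and 2 higher. At d2.5 the knockdown gave 3 higher, led by the tankyrase Tnks2 (0.19), an enzyme that marks angiomotins for breakdown, and none lower.

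In 20 junction and polarity genes, of which 18 were tested at d2.5 and 17 at d5, FGF2 gave 7 higher and 7 lower at d2.5 and 7 higher and 3 lower at d5. Cdh11, the mesenchymal and osteoblast cadherin, went from 182 ± 9.49 to 29.5 ± 1.27 CPM with FGF2 at d2.5 (-2.63) and from 636 ± 44.4 to 288 ± 24.6 CPM at d5 (-1.13). It was higher after knockdown on both days (0.84 and 0.74). Wwc1, the scaffold Kibra that activates Lats kinases, rose with FGF2 from 6.5 ± 0.264 to 17.6 ± 1.45 CPM at d5 (1.45) and was at 4.98 ± 0.473 CPM after knockdown (-1.82). The knockdown gave 4 higher and 4 lower in this list on each day.

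In the 12 genes of the Hippo kinase core, FGF2 gave 4 higher and 3 lower at d2.5, and none higher and 5 lower at d5, with the largest called fall for Mob1a, a co-activator of Lats kinases, from 267 ± 7.92 to 216 ± 1.13 CPM (-0.30). The knockdown gave 2 higher and 2 lower at d2.5, and 7 higher and none lower at d5, with a median of 0.14 beside 0.00 over all genes. Of the 8 Yap/Taz and Tead factors, Vgll4, a competitor of Yap for Tead, fell the most with FGF2 at d2.5, from 56.1 ± 1.54 to 24.5 ± 2.72 CPM (-1.21), and Tead2 rose the most at d5 (0.55). Wwtr1 was higher with FGF2 at d2.5 (0.65) and slightly lower at d5 (-0.09, adjusted p = 0.045). FGF2 gave 2 higher and 4 lower of the 8 at d2.5 and 6 higher and 1 lower at d5. The knockdown gave 4 lower at d2.5 and 3 lower and 1 higher at d5, and both siRNA targets are among the genes that were lower.

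The knockdown moved 20 Yap/Taz target genes in both directions, with 4 higher and 7 lower of 19 tested at d2.5 and 8 higher and 8 lower of 20 at d5. Ankrd1, a widely used Yap target, went from 27.9 ± 1.38 to 18.4 ± 1.45 CPM after knockdown at d2.5 (-0.61). F3, which encodes tissue factor, rose from 87.6 ± 8.22 to 167 ± 5.44 CPM after knockdown at d5 (0.92). With FGF2, 9 were higher and 7 lower on each day. Amotl2 therefore fell with a mixed group of targets, in which its own direction was that of 7 of 19 genes at d2.5 and 8 of 20 at d5.

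**Figure D5:**
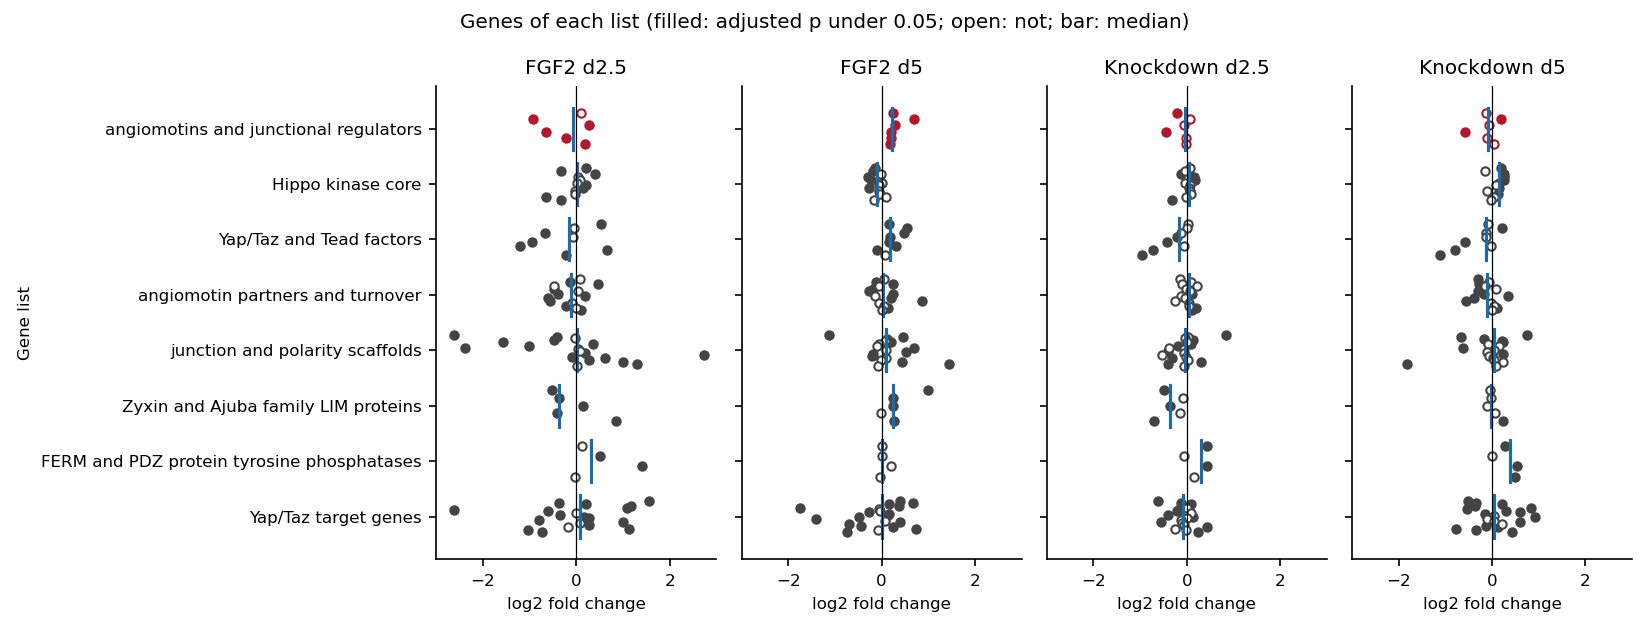
Log2 fold change (x axis) of each gene in 8 lists (y axis) for FGF2 and for Yap/Taz knockdown at d2.5 and d5; filled points had an adjusted p under 0.05, blue bars are medians and the 6 genes described here are in red. All 6 lie to the right of 0 with FGF2 at d5, with a median of 0.23.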

How the data were processed

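Polyadenylated RNA of O9-1 cells was sequenced in 18 libraries. The deposited files hold whole-number read counts per Ensembl gene in unstranded and stranded columns, and the authors' processing notes name mm10, FastQC, STAR, Picard and featureCounts, with no versions given in the sources used here. The reverse-strand column was used, as it held 96.0% to 96.6% of stranded gene counts. Reads assigned to no gene (27.0% to 34.4%) were left out. Identifiers were matched to GENCODE M21 symbols without version (55154 of 55335). The 6 genes and all lists were chosen with earlier results of these data known.

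Each day was fitted apart on its 9 libraries with edgeR 4.0.16 (TMM, filterByExpr, quasi-likelihood test, Benjamini-Hochberg adjustment over all genes tested, threshold 0.05), and differences between days on all 18. SE was derived from each change and its F statistic. Replicates differed by more than sampling noise in every pair. Replicate numbers did not pair the libraries over all groups. Between Ctrl+vehicle and Ctrl+FGF2 at d5, libraries 1 and 2 did correlate with their own number (0.217 and 0.248). The script was tested on simulated data in which 200 genes were changed, fewer than were called in any comparison here. Its behaviour with as many changed genes as in these data was not tested. Alternatives were RLE and upper-quartile scaling, DESeq2 1.42.0, no filter, at least 10 counts in every library, unstranded counts, other libraries in the fit, a replicate block, and leaving out each library.

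From the further lists, the text named some of the called genes with the largest rise or fall, by day, with FGF2 or knockdown. Others, such as Pard6b and Ccdc80 with FGF2 at d2.5, were left out. Trip6, Ptpn21, Ptpn4 and Ptpn13 were named after their values were seen, as was the d2.5 value of Patj. The d2.5 knockdown value of Fblim1 was not the largest fall of its list either. For each of the 6 genes, 3 nearest genes were named, among genes whose mean log2 CPM reached 1, after adding 0.5 to each CPM. Promoters are RefSeq (GRCm38.p6).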

Additional observations from a re-analysis of the deposited data

Results flagged for a closer look

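The FGF2 change differed between the days in 3 of the 6 genes by the direct test, with the change at d5 above that at d2.5 by 1.60 for Amot, 0.84 for Amotl2 and 0.39 for Limd1 on the log2 scale. Over all 14198 genes tested, 60.9% were called for this difference, so that 3 of 6 is no more than the background. For Amot the change was -0.93 at d2.5 and 0.69 at d5, for Amotl2 -0.66 and 0.20, and for Limd1 -0.22 and 0.20. The call for each difference was kept in all 7 alternatives and in all 12 fits with 1 library left out. Day and batch cannot be told apart.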

How the results depend on the processing

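Of 1002 alternative values for 66 results of the 6 genes, 988 kept their side of the threshold, 9 lost the call and 5 gained it. Of values called in the main fit or in the alternative, 0 changed direction. Some uncalled values near 0 did, such as the FGF2 difference between days for Amotl1, from -0.02 to 0.07 with upper-quartile scaling. DESeq2 called 1 of the 6 genes after knockdown at d5 in place of 2. With 1 library left out, the number of genes called ranged from 5 to 6 with FGF2 at d5 and from 1 to 2 after knockdown at d2.5. It ranged from 1 to 3 after knockdown at d5, and from 0 to 1 for the knockdown difference between days. From d2.5 to d5 with vehicle, Ajuba was called in 1 such fit. Upper-quartile scaling also called Ajuba for the FGF2 difference between days (0.226, adjusted p = 0.025). The cause of these changes was not tested. No alternative moved the count over all genes by more than 1.5 times.

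Deviations of same-numbered libraries correlated at -0.099 to 0.248, those of other pairs at -0.235 to 0.13, and 6 of 18 libraries correlated best with their own number. Between Ctrl+vehicle and Ctrl+FGF2 at d5, the same numbers correlated at 0.217, 0.248 and 0.019. Crossed pairs of numbers 1 and 2 there were at -0.218 and -0.235. With the replicate block, 5 and 2 genes were called with FGF2 and after knockdown at d2.5, and 6 and 2 at d5, as without it. The block changed no call and moved the counts over all genes by 0.964 to 1.03 times.

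Without TMM, group means moved by -10.4% to 7.28%, which exceeded 1 SD in 29 of 36, so levels across days depend on the scaling more than changes within a day. Of the 3 nearest genes, 1 stayed among the nearest over single libraries for each gene but Amot, for which all 3 did. Each group has 3 libraries, and the chi-square per degree of freedom between libraries of a group, which is 1 for counting error alone, ran from 1.25 to 6.41, so that counting error was a sizeable part of the spread in the closest pairs.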
